A study of Mus musculus with 24 samples.

Results

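The genes described here are nuclear-encoded subunits of the mitochondrial oxidative phosphorylation system, taken by a naming rule that the whole symbol had to match. The rule held Nduf with a letter (a, b, c, s or v) and number, Sdha to Sdhd, and set Uqcr names. It also held set Cox names from Cox4i1 to Cox8a, and Atp5 with a letter from a to l and an optional digit. Some subunits and isoforms, such as Cox7a2l, Ndufa4l2 and Atp5o, fall outside it. The rule found 73 of the 23329 gene symbols counted: 36 of complex I, 4 of complex II, 8 of complex III, 11 of complex IV and 14 of complex V. Messenger RNA was counted in 24 libraries from C57Bl/6 mice, 4 in each of 6 groups. The mice were VilCre controls, which express Cre recombinase from the Villin promoter, active in gut epithelium, or VilCre-CMVcaNrf2 mice, which also carry caNrf2, a constitutively active form of the transcription factor NRF2 (gene Nfe2l2). All groups carry VilCre. Pieces of colon wall, which hold epithelium, muscle, stroma and blood cells, came from untreated control mice, untreated caNrf2 mice, control mice given dextran sulfate sodium (DSS), and caNrf2 mice given DSS. DSS is a polymer that injures the colon lining. Epithelial cells came from untreated control and untreated caNrf2 mice. The sources used here give neither the age of the mice, nor the dose and duration of DSS, nor how the epithelial cells were obtained. The labels do not say that libraries of a group came from separate animals, so a p-value here reflects only how far these libraries differ among themselves, which may be technical.

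Oxidative phosphorylation passes electrons from NADH through complex I, or from succinate through complex II, to ubiquinone, then through complex III and cytochrome c to complex IV, which reduces oxygen. Complexes I, III and IV pump protons across the inner mitochondrial membrane, and complex V, the ATP synthase, uses the gradient to make ATP. Most subunits are encoded in the nucleus, and nuclear respiratory factor 1 (gene Nrf1), the ETS factor GABP (also called nuclear respiratory factor 2) and estrogen-related receptors are known to bind promoters of many of them. These 2 nuclear respiratory factors are unrelated to the NRF2 of the transgene. In the colon, surface absorptive cells are rich in mitochondria and oxidise butyrate.

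Wall libraries held 20232343 to 154336042 counts and epithelial libraries 6683795 to 15399877. Nfe2l2 lay at 99.5 to 146.2 CPM (counts scaled to library size by edgeR's TMM factors) in untreated control wall and at 147.6 to 238.5 in untreated caNrf2 wall, the lowest of them just above the highest control. With DSS it lay at 110.6 to 168.0 CPM in controls and 166.4 to 284.7 in caNrf2 wall, where replicate 2 overlapped the controls, and in epithelial cells at 138.8 to 203.2 and 231.0 to 370.1. None of these 3 differences passed an adjusted p of 0.05 (0.199, 0.957 and 0.219, edgeR). The epithelial label was checked against muscle genes: 8 smooth muscle markers summed to 14.1 to 89.3 CPM in the epithelial libraries and to 9162 to 37964 CPM in wall. General epithelial markers were not higher in epithelial cells. Their mean summed CPM differed from untreated wall by -20.7% in controls and -12.4% in caNrf2 mice, with overlap. Goblet cell markers were 398% and 277% higher in epithelial cells, without overlap. In 2 epithelial libraries, control replicate 3 and caNrf2 replicate 1, the 9 absorptive colonocyte markers summed to 23104 and 24968 CPM, and to 1237 to 4970 CPM in the other 6. Results on epithelial cells are therefore given with and without this pair. In bulk samples, fewer cells of a type and less RNA per cell cannot be told apart.

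Levels of different subunits were compared by the authors' TPM, which scale transcript abundance by transcript length and library total. Over the 24 libraries the median subunit lay at 249.2 TPM in complex I, 319.0 in complex II, 544.3 in complex III, 1101 in complex IV and 815.4 in complex V. The highest levels were those of Cox6a1, a small complex IV subunit, at 1895 ± 346.6 TPM (SD over 24 libraries), Atp5b, the catalytic beta subunit of ATP synthase, at 1791 ± 324.5 TPM, and Cox4i1, a regulatory complex IV subunit, at 1770 ± 473.8 TPM. The ranges of mean ± SD of these 3 neighbours overlapped, though this SD pools all 6 groups. Library by library, Cox6a1 was above Cox4i1 in every wall library, and their order varied in epithelial cells. In complex I, Ndufa6 was at 653.1 TPM and Ndufb9 at 630.8 TPM, both accessory subunits, while Ndufa11, another accessory subunit, was at 47.7 TPM. Ndufs1, the largest iron-sulfur subunit of complex I, was at 99.9 ± 15.8 TPM, the fourth lowest of the 73.

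As a ratio of highest to lowest TPM, the other complexes had narrower ranges than complex I. The ratio was 40.7 in complex I, 1.47 in II, 4.99 in III, 12.5 in IV and 4.74 in V. That of complex I rests on Ndufs5, whose values are uncertain as given below. Complex II ran from Sdha, its flavoprotein, at 274.3 ± 42.4 TPM and Sdhc, a membrane anchor, at 315.8 ± 41.2 TPM through Sdhb, its iron-sulfur subunit, at 322.1 ± 80.2 TPM to Sdhd, the other anchor, at 403.1 ± 62.7 TPM. The ranges of mean ± SD of Sdhc and Sdhb overlapped, and their order varied between libraries. In complex III, Uqcrh, the hinge protein, was highest at 1469 TPM, then Uqcr10 at 917.9 TPM. Uqcrfs1, the Rieske iron-sulfur protein, was lowest at 294.4 TPM, and Uqcrc2, a core protein, was at 351.6 TPM. In complex V, Atp5g3, one of the genes for the membrane subunit c, followed Atp5b at 1191 TPM, and Atp5f1 and Atp5j, both of the peripheral stalk, were lowest at 378.1 and 486.7 TPM. Complex IV ended with Cox7b at 555.2 TPM and Cox7a1 at 151.1 TPM.

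Ndufs5, a complex I subunit, was the lowest of all at 16.04 TPM, and its values are uncertain. It was listed at 0 counts in 4 epithelial libraries, and its other 20 deposited counts were all whole multiples, within 0.1 of a step, of the smallest, 16.59. Many subunit genes have near-identical processed copies elsewhere in the genome, and the sources used here do not say how reads shared with them were assigned.

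Several subunits come as tissue isoforms, and the isoforms known from striated muscle were almost unused. Cox6a2 and Cox8b, the heart and muscle isoforms, averaged at most 0.74 and 6.04 TPM in any group, beside 1719 TPM or more of Cox6a1 and 1437 TPM or more of Cox8a. Cox4i2, the lung isoform, averaged 3.17 to 4.27 TPM in the wall groups and was listed at 0 in all 4 caNrf2 epithelial libraries. Cox7a1, which is abundant in heart and muscle, was the exception. It made up 26.3% ± 2.91 (SD, n = 4) of the summed TPM of Cox7a1 and its widely expressed partner Cox7a2 in untreated control wall.

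Atp5g1, Atp5g2 and Atp5g3 encode an identical mature subunit c of ATP synthase. Atp5g3 gave the largest mean share of their summed TPM in every group, from 40.0% ± 4.66 in caNrf2 epithelial cells to 57.1% ± 1.01 in DSS-treated control wall. In caNrf2 epithelial replicate 3, however, Atp5g2 was above Atp5g3, at 903.9 and 869.1 TPM. Atp5g1 gave 25.9% ± 0.76 in control and 28.0% ± 1.64 in caNrf2 epithelial cells, and between 17.5% ± 1.23 and 18.9% ± 2.98 in the 4 wall groups. Its share was at least 24.8% in each epithelial library and at most 23.1% in each wall library, so the 2 kinds of sample did not overlap.

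**Figure D1:**
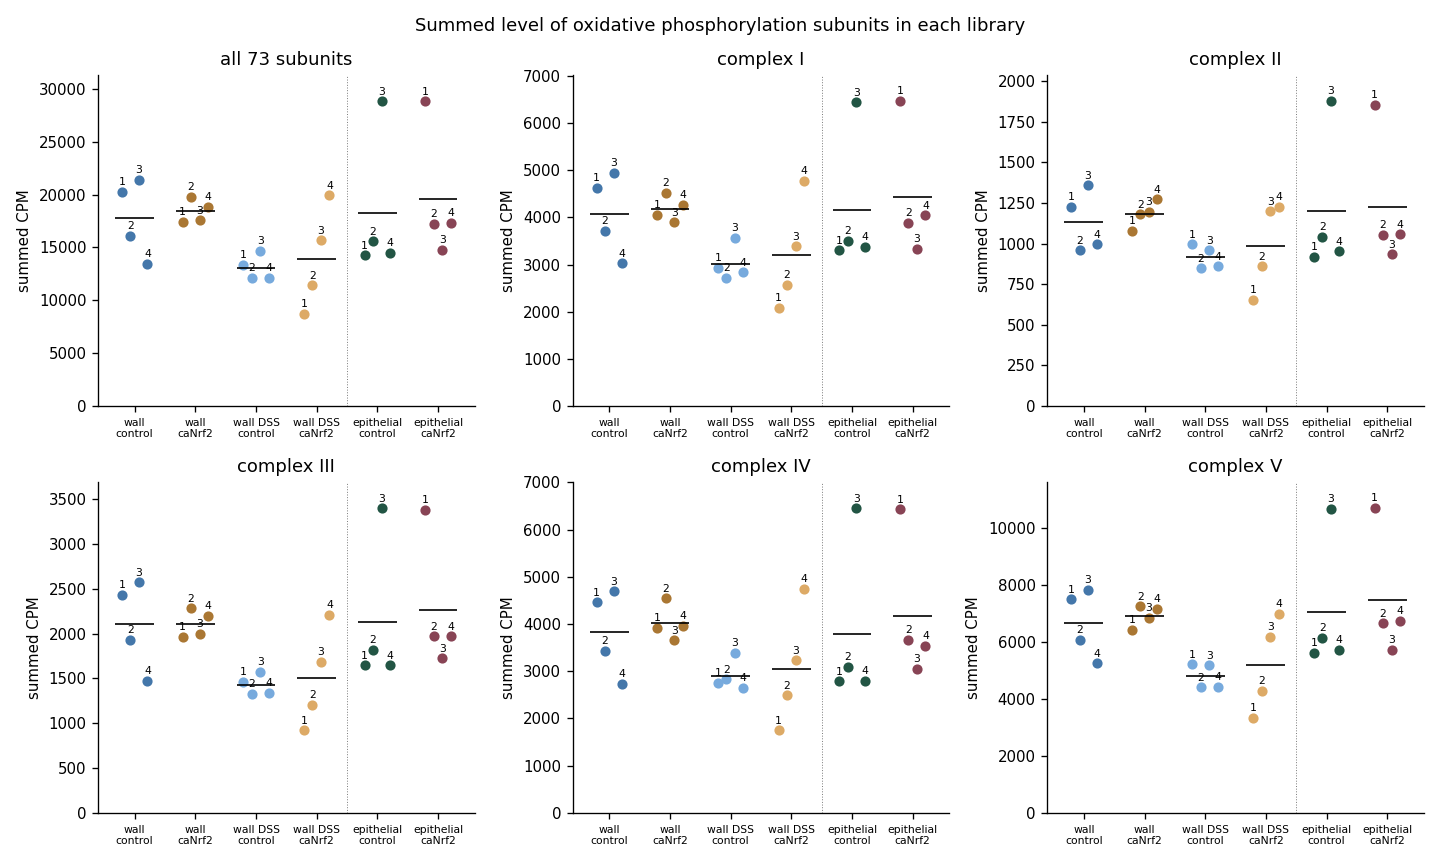
Summed CPM of all 73 subunits and of each complex (vertical axes, from 0) in each of the 24 libraries, by group; points are libraries with their replicate numbers and horizontal lines are group means. In every complex epithelial control 3 and caNrf2 1 are the highest of their groups. The order of wall libraries differs in part between complexes, as in complex II. DSS-treated caNrf2 libraries spread from 8753 to 19946 CPM for all subunits.

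The subunits moved together from library to library. Summed over all 73, untreated control wall lay at 20249, 16101, 21396 and 13476 CPM in replicates 1 to 4, and untreated caNrf2 wall at 17435, 19776, 17579 and 18861 CPM. With DSS, control wall lay at 13336, 12130, 14669 and 12115 CPM and caNrf2 wall at 8753, 11418, 15686 and 19946 CPM. The DSS-treated caNrf2 group thus held both the lowest and one of the highest wall libraries. Replicate 1 of that group had the lowest level for 71 of the 73 subunits and replicate 4 the highest for 67. In epithelial cells, control lay at 14265, 15591, 28836 and 14490 CPM and caNrf2 at 28840, 17232, 14759 and 17358 CPM. Control replicate 3 was the highest of its group for all 73 subunits and caNrf2 replicate 1 for 72.

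**Figure D2:**
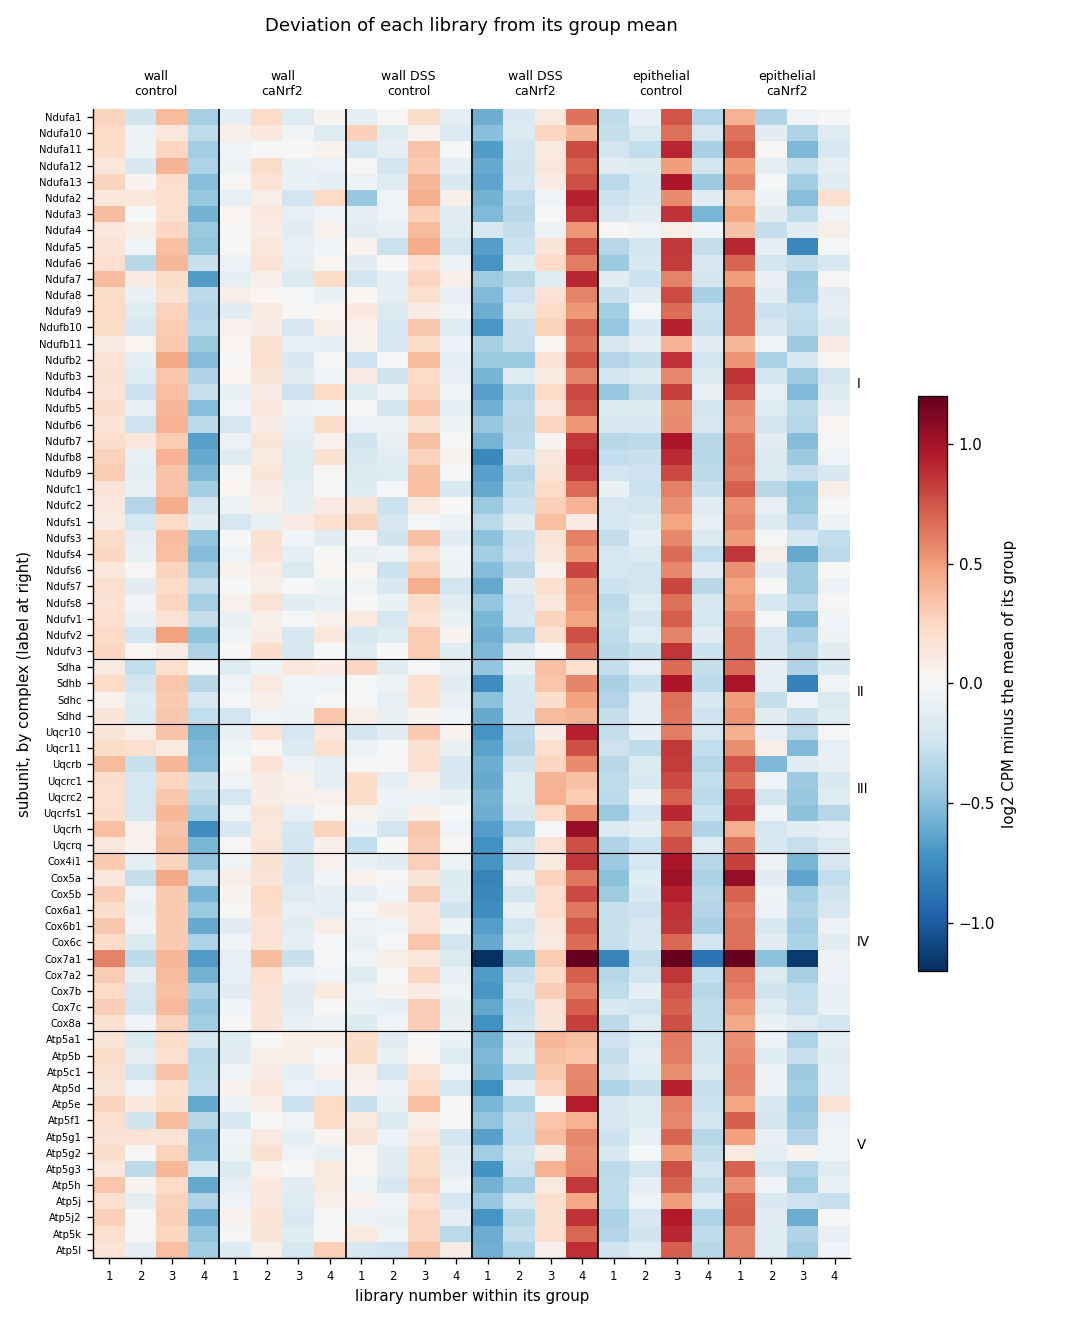
Log2 CPM of 71 subunits (rows, by complex; Ndufs5, which has values of 0, is not drawn) minus the mean of its group, in each library (columns). Whole columns share a colour: DSS-treated caNrf2 replicate 1 is low and replicate 4 high, and epithelial control 3 and caNrf2 1 are high.

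The spread of a subunit between libraries differed by group. The median coefficient of variation over the 73 subunits was 8.83% in untreated caNrf2 wall, 12.9% in DSS-treated control wall, 22.7% in untreated control wall, 32.7% and 38.4% in caNrf2 and control epithelial cells, and 37.8% in DSS-treated caNrf2 wall. Ndufa4, counted with complex I by its name though now assigned to complex IV, varied least in control epithelial cells at 4.26%, where the group as a whole varied most. Cox7a1 varied most in DSS-treated caNrf2 wall at 76.6%. The epithelial pair that stands high in colonocyte markers is the same pair that stands high in the subunits. Its part in the subunit levels was not tested.

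With DSS a small number of subunits fell past the threshold, and nearly all others had a fitted change below 0 that did not pass. In control wall 10 of 73 fell and 0 rose (edgeR's quasi-likelihood test, p adjusted over all genes by Benjamini-Hochberg below 0.05), or 13.7%, where 16.1% of all genes tested fell and 23.1% rose. In caNrf2 wall 6 of 73 fell and 0 rose, or 8.22%, beside 18.1% of all genes that fell and 23.1% that rose. With edgeR and all libraries the share that passed was thus not above the background in either genotype. Other tools gave other counts. DESeq2 called 26 of 73 lower in controls and 10 in caNrf2 wall, where it called 20.5% of all genes lower in each. Voom with sample quality weights called 69 of 73 lower in each genotype, where it called 26% and 27.6% of all genes lower. The fitted change was below 0 for 72 of 73 subunits in each genotype, with a median log2 fold change of -0.45 in controls and -0.38 in caNrf2 mice. Among all 16074 genes tested 45.7% and 49.3% were below 0, with medians of 0.06 and 0.01. Mean summed CPM of the subunits differed by -26.6% in controls and -24.2% in caNrf2 wall. As log2 ratios these were -0.45 and -0.40 in CPM, and -0.29 and -0.28 on the authors' TPM.

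The count of subunits past the threshold depended strongly on single libraries. Without DSS-treated caNrf2 replicate 4, 63 of 73 subunits passed as lower in caNrf2 wall, where 21.5% of all genes did, and 47 of 73 in controls, where 22.1% did. In caNrf2 wall 0 passed without untreated replicate 2 or without DSS replicate 2, beside 12.8% of all genes called lower in each case. It was 1 without DSS replicate 1 (16.9% of all genes), 2 without untreated replicate 1 or 3 (14.7% and 15.4%) and 11 without untreated control replicate 4 (21.1%). In control wall 41 passed without untreated replicate 4 (19.6% of all genes), 35 without DSS-treated caNrf2 replicate 1 (19.5%) and 22 without untreated caNrf2 replicate 4 (20.4%). It was 2 without untreated replicate 1 or 3 or DSS replicate 4 (12.9%, 15.4% and 13%) and 1 without DSS replicate 2 (11.8%). The share of all genes called lower thus moved with the library left out, by less than the count of subunits. Without replicate 4 of all 4 wall groups, whose files carry a number prefix unlike that of the other libraries, 39 fell in controls and 55 in caNrf2 wall, beside 18.6% and 21.3% of all genes. By group ranges, 11 subunits in controls and 2 in caNrf2 wall had every DSS library below every untreated library, or 15.1% and 2.74%, beside 14.7% and 16.7% of all genes.

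**Figure D3:**
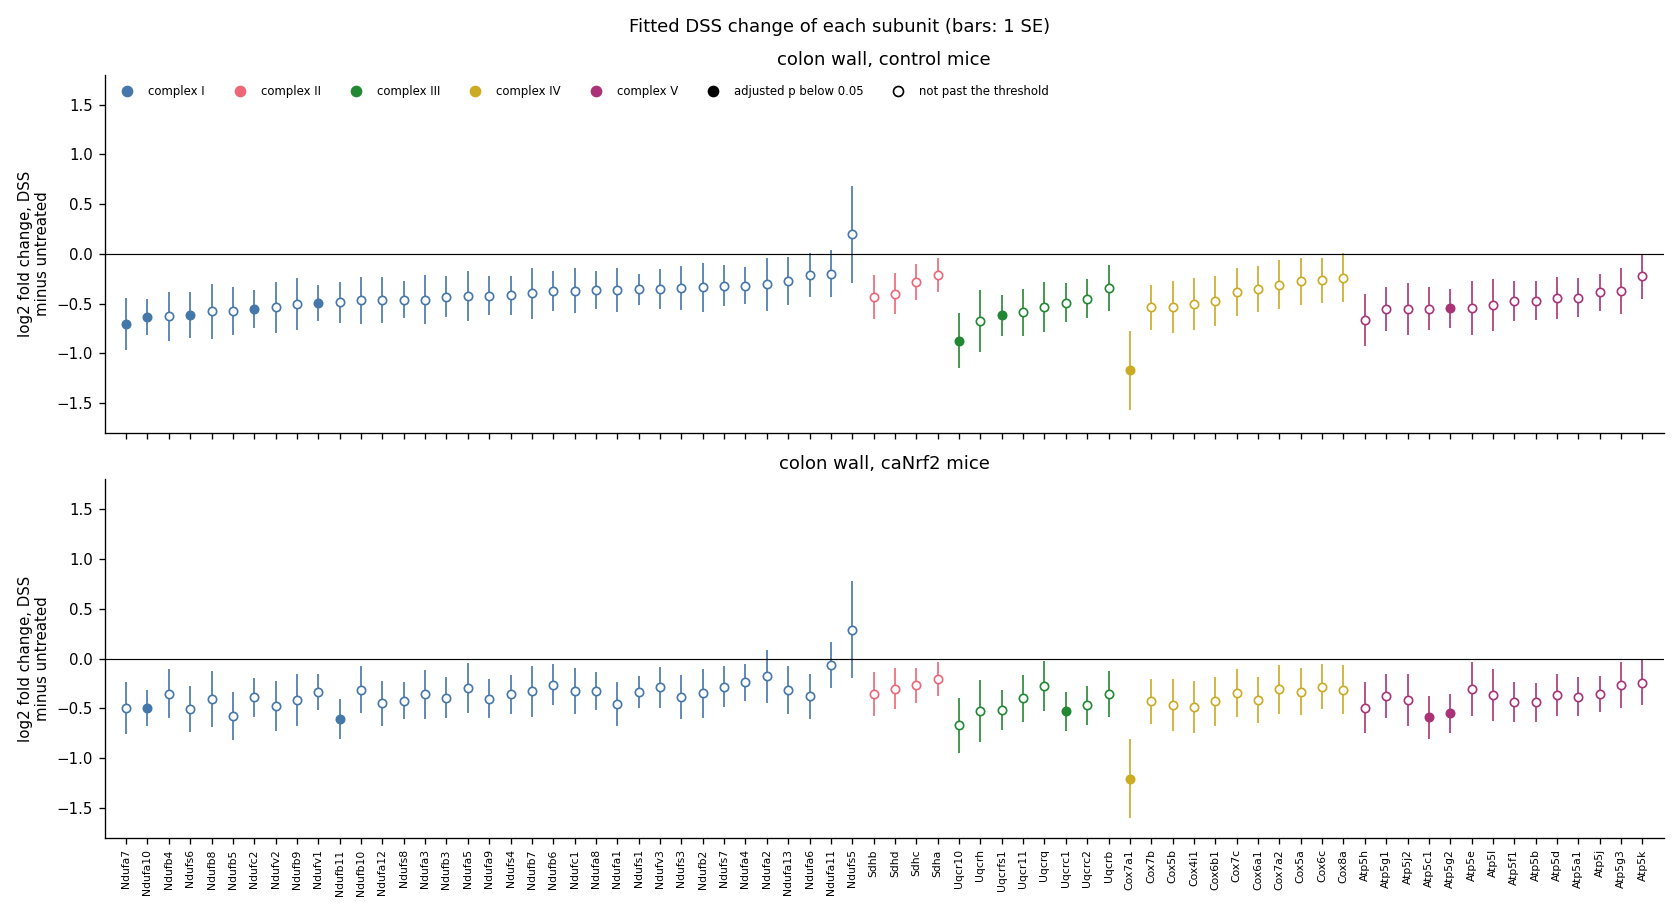
Fitted log2 fold change, DSS minus untreated (vertical axis, bars 1 SE), of 72 subunits (horizontal axis, by complex, in the order of the control change), in control and caNrf2 wall; filled points passed an adjusted p of 0.05. In each genotype 71 points lie below 0 and Cox7a1 lies lowest.

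Ndufa10, Cox7a1 and Atp5g2 fell in both genotypes. These 3 are 30% of the 10 called in controls and 50% of the 6 called in caNrf2 wall. Their upstream sequences are shown because they are the subunits called in each comparison, and that of Cox7a2 because it is the partner of Cox7a1. Each is the 250 bases before the annotated start, read 5′ to 3′ on the gene's strand, from RefSeq on GRCm38.p6, and ends at the base before the gene start given in the deposited files. Capitals mark the nuclear respiratory factor 1 core GCATGCGC, here 2 overlapping matches on opposite strands.
Cox7a1, chr7:30183921-30184170, plus strand: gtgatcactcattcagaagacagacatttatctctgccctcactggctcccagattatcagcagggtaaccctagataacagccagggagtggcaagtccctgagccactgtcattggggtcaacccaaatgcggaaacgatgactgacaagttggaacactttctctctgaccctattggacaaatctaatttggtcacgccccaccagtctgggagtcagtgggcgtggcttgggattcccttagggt
Cox7a2, chr9:79759854-79760103, minus strand: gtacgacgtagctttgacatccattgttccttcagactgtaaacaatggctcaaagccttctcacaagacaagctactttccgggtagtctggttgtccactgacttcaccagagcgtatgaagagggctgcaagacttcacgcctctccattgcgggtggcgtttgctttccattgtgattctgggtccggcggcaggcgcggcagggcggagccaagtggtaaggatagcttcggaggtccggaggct
Ndufa10, chr1:92473759-92474008, minus strand: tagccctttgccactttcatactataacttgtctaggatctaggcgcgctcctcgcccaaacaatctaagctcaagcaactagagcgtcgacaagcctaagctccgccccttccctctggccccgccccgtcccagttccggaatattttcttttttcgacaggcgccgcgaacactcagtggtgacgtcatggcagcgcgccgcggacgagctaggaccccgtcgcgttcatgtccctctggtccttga
Atp5g2, chr15:102671048-102671297, minus strand: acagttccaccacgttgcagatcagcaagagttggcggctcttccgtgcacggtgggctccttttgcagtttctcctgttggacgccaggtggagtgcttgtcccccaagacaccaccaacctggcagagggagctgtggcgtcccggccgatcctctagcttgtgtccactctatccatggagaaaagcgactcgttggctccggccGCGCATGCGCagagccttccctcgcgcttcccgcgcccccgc

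Motifs for 4 factors were searched on both strands in the 300-base windows (250 bases before to 50 after the start) of the 61 subunits that RefSeq's promoter table holds. The nuclear respiratory factor 1 core GCATGCGC was in 10 of 61 windows, or 16.4%, against 2.80% of all 27025 windows and 4.79% of the 11271 windows of genes tested in colon wall. Those 10 belong to Atp5g2, Atp5k, Atp5l, Cox6a1, Ndufa11, Ndufa6, Ndufa8, Sdhb, Uqcr11 and Uqcrc1. The ETS motif CCGGAAG, which GABP can bind, was in 15 of 61, or 24.6%, against 9.12% and 15.3%. The estrogen-related receptor motif AAGGTCA was in 8 of 61, or 13.1%, against 4.66% and 3.34%. The antioxidant response element core TGACNNNGC, which NRF2 binds, was in 8 of 61, or 13.1%, against 12.5% and 14.8%. Those 8 belong to Cox5b, Ndufa1, Ndufa7, Ndufa9, Ndufa10, Ndufa11, Ndufs5 and Ndufv2. In the 250 bases printed above for Cox7a1, Cox7a2 and Ndufa10 none of the 4 motifs was found. The antioxidant response element match of Ndufa10 reached into the 50 bases after the start, which are not printed. A match is a description of letters, not of binding.

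Complex I held 6 of the 10 subunits that fell in control wall and 2 of the 6 in caNrf2 wall, with median changes of -0.42 and -0.36 over its 36 genes. By share of its 36 genes it was near the 16.1% of all genes that fell in controls and below the 18.1% in caNrf2 wall. Ndufa10, an accessory subunit of the membrane arm, was at 156.2, 128.1, 146.3 and 107.7 CPM in untreated control wall and at 105.0, 77.6, 88.5 and 76.1 CPM with DSS. In caNrf2 wall it was at 149.5, 157.0, 140.2 and 128.5 CPM untreated and at 70.1, 88.5, 118.4 and 130.6 CPM with DSS. The control groups did not overlap, and the caNrf2 groups overlapped through DSS replicate 4. The log2 fold changes were -0.63 ± 0.18 (SE, adjusted p = 0.0111) and -0.50 ± 0.18 (adjusted p = 0.0349).

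Ndufv1, the subunit of the electron-input arm that holds the NADH site, fell in controls. It was at 192.8, 157.9, 189.2 and 137.8 CPM in untreated and at 129.7, 104.6, 134.8 and 113.0 CPM in DSS-treated control wall (-0.49 ± 0.18, adjusted p = 0.0421). Every DSS library lay below every untreated library. In caNrf2 wall its change was -0.33 ± 0.18 and did not pass (adjusted p = 0.152). Ndufs1, the large iron-sulfur subunit of the same arm, was at -0.36 ± 0.16 in controls and -0.34 ± 0.16 in caNrf2 wall (adjusted p = 0.0858 and 0.101).

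Ndufc2, Ndufa7 and Ndufs6, accessory subunits, also fell in controls, at -0.55 ± 0.19, -0.70 ± 0.26 and -0.61 ± 0.23 (adjusted p = 0.0323, 0.0431 and 0.044). Ndufb11, an accessory subunit of the membrane arm, fell in caNrf2 wall, from 158.8, 177.1, 147.3 and 143.9 CPM untreated to 75.1, 81.7, 100.6 and 155.1 CPM with DSS (-0.60 ± 0.20, adjusted p = 0.0255). DSS replicate 4 lay inside the untreated range. The complex I genes farthest from the median on the upper side were Ndufs5, at 0.20 ± 0.49 and 0.29 ± 0.49, and Ndufa11, at -0.20 ± 0.23 and -0.06 ± 0.23, in controls and caNrf2 wall. Ndufa4 was at -0.32 ± 0.19 and -0.24 ± 0.19. None of these 3 passed.

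No complex II subunit passed in either genotype under edgeR, and none had an unadjusted p below 0.05. Sdha was at 469.7, 355.7, 500.6 and 431.8 CPM in untreated and 448.4, 343.2, 372.6 and 354.7 CPM in DSS-treated control wall, and the groups overlapped. Its changes were -0.21 ± 0.17 in controls and -0.20 ± 0.17 in caNrf2 wall. Sdhb was at -0.44 ± 0.22 and -0.36 ± 0.22. The median of the 4 genes was -0.34 and -0.29.

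In complex III 2 of 8 subunits fell in controls and 1 in caNrf2 wall, beside 16.1% and 18.1% of all genes. The medians were -0.56 and -0.49. Uqcr10, a small subunit, was at 240.8, 228.1, 276.1 and 146.6 CPM in untreated and 103.7, 110.1, 149.5 and 123.8 CPM in DSS-treated control wall (-0.87 ± 0.28, adjusted p = 0.0197). Untreated replicate 4 lay just below the highest DSS library. In caNrf2 wall Uqcr10 was at -0.67 ± 0.27 (adjusted p = 0.0601). Uqcrfs1, the Rieske protein that passes electrons to cytochrome c1, was at 258.8, 194.5, 293.4 and 168.2 CPM and at 153.1, 140.8, 154.9 and 147.5 CPM with DSS, without overlap (-0.62 ± 0.21, adjusted p = 0.0256). Its change in caNrf2 wall was -0.52 ± 0.21 (adjusted p = 0.0534).

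Uqcrc1, a core protein of complex III, fell in caNrf2 wall. It was at 358.7, 390.6, 381.0 and 340.7 CPM untreated and at 160.9, 220.6, 324.7 and 312.7 CPM with DSS (-0.53 ± 0.20, adjusted p = 0.0396). The DSS libraries all lay below the untreated ones, with replicates 3 and 4 close to them. In controls it was at -0.49 ± 0.20 (adjusted p = 0.0576).

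Complex IV had 1 call among its 11 subunits in each genotype, Cox7a1, beside 16.1% and 18.1% of all genes. This gene had the most negative fitted change of the 73 subunits in each. Cox7a1 was at 51.3, 27.4, 44.9 and 21.2 CPM in untreated control wall and at 15.6, 17, 17.7 and 14.3 CPM with DSS. In caNrf2 wall it was at 29.9, 41.6, 26.7 and 31.8 CPM untreated and at 5.03, 8.09, 14.1 and 29.4 CPM with DSS. The control groups did not overlap, and in caNrf2 wall DSS replicate 4 lay inside the untreated range. The changes were -1.17 ± 0.40 (adjusted p = 0.0287) and -1.21 ± 0.40 (adjusted p = 0.0239). The medians of the complex were -0.38 and -0.42, and the difference of Cox7a1 from them was not tested.

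Cox7a2, its partner, was at 286.7, 214.3, 302.2 and 157.3 CPM in untreated and 173.9, 189.8, 230.4 and 181.9 CPM in DSS-treated control wall. Its change was -0.31 ± 0.25 in controls and -0.31 ± 0.25 in caNrf2 wall, and neither passed (adjusted p = 0.337 and 0.33). In TPM, the share of Cox7a1 in the pair was 26.3% ± 2.91 untreated and 16.9% ± 1.17 with DSS in controls, and 23.2% ± 1.84 and 12.8% ± 3.94 in caNrf2 wall. Every untreated wall library was at or above 20.9% and every DSS library at or below 18.1%. This holds also for DSS-treated caNrf2 replicate 4, at 18.1%, whose summed subunit CPM was above that of every untreated caNrf2 library. In epithelial cells the share was 25.3% in control replicate 3 and 30.2% in caNrf2 replicate 1, the libraries high in colonocyte markers, and 9.37% to 17.1% in the other 6. The other complex IV subunits did not pass: Cox4i1 was at -0.51 ± 0.26 and -0.49 ± 0.26, and Cox5a at -0.28 ± 0.24 and -0.33 ± 0.24.

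**Figure D4:**
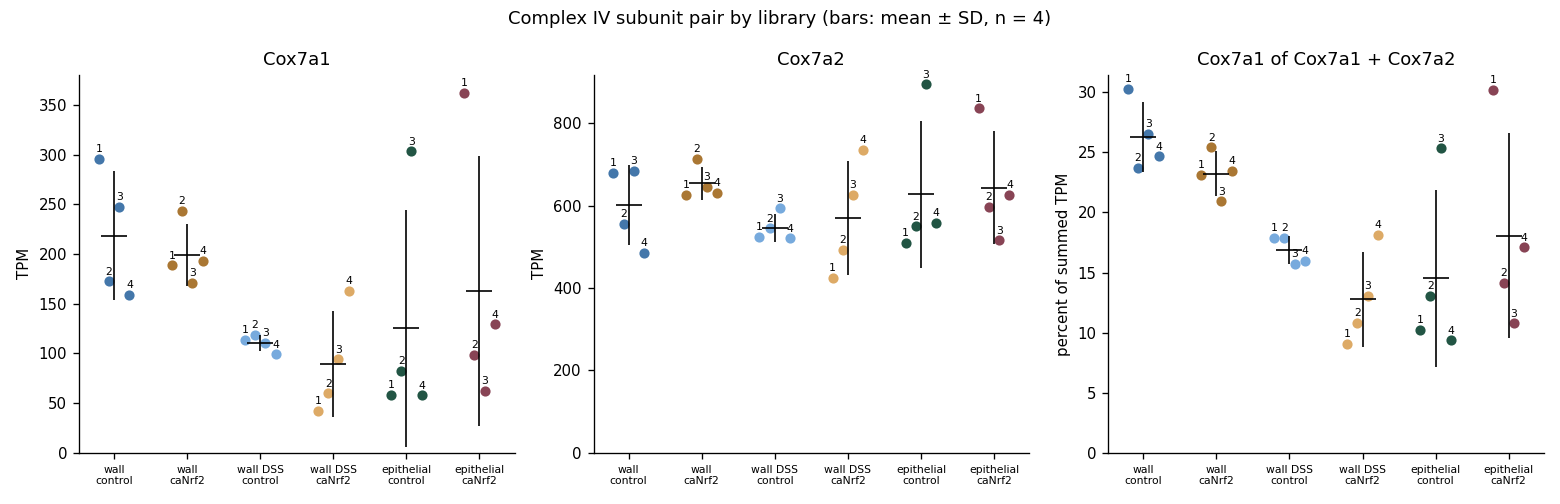
TPM of Cox7a1 and Cox7a2 and the percent of their summed TPM that is Cox7a1 (vertical axes, from 0) in each library by group; points are libraries with replicate numbers, and bars are the mean ± SD of 4. The share is 20.9% or more in every untreated wall library and 18.1% or less in every DSS-treated one.

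In complex V the subunit c gene Atp5g2 fell in both genotypes. It was at 246.9, 215.7, 258.5 and 151.7 CPM in untreated and 151.4, 136.5, 173.4 and 135.8 CPM in DSS-treated control wall (-0.55 ± 0.20, adjusted p = 0.0358). In caNrf2 wall it was at 229.7, 272.2, 232.2 and 224.9 CPM and at 118.4, 135.7, 168.4 and 231.5 CPM with DSS (-0.55 ± 0.20, adjusted p = 0.0329). Each pair of groups overlapped through replicate 4, untreated in controls and DSS-treated in caNrf2 mice. The other subunit c genes did not pass: Atp5g1 was at -0.55 ± 0.22 and -0.38 ± 0.22, and Atp5g3 at -0.37 ± 0.23 and -0.27 ± 0.23. Atp5c1, the gamma subunit of the central stalk, fell in caNrf2 wall at -0.59 ± 0.21 (adjusted p = 0.0371), from 464.4 ± 29.8 to 308.7 ± 110.8 CPM (SD, n = 4). Its groups overlapped, with DSS replicate 4 at 436.6 CPM and untreated replicate 3 at 429.3 CPM. The catalytic head did not pass: Atp5a1 was at -0.44 ± 0.20 and -0.38 ± 0.20, and Atp5b at -0.47 ± 0.20 and -0.44 ± 0.20 (adjusted p = 0.068 and 0.0826).

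Other mitochondrial gene lists were described by the same counts. Over all genes tested, 16.1% fell in controls and 18.1% in caNrf2 wall. Of 73 mitochondrial ribosomal proteins (symbols Mrpl or Mrps with a number), 49 fell with DSS in controls and 39 in caNrf2 wall, with medians of -0.54 and -0.47. Mrps9 was at -0.83 ± 0.16 and -1.12 ± 0.16, and Mrpl19 at -0.86 ± 0.16 in controls. Of 17 citric acid cycle and pyruvate dehydrogenase genes 10 and 9 fell, with Suclg1, a succinyl-CoA ligase subunit, at -0.85 ± 0.19 and -0.77 ± 0.19 and Idh3b, an isocitrate dehydrogenase subunit, at -0.58 ± 0.15 and -0.57 ± 0.15. The median change of this list was -0.43 and -0.41. The median SE of the change was 0.23 over the subunits, 0.18 over the mitochondrial ribosomal proteins and 0.16 over the citric acid cycle genes, in each genotype.

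Among 27 tested assembly factors of the complexes, 11 fell in controls and 8 in caNrf2 wall, beside 16.1% and 18.1% of all genes. Ndufaf4 and Ndufaf2, which assemble complex I, were at -0.73 ± 0.18 and -0.72 ± 0.19 in controls, and Surf1, which assembles complex IV, at -0.74 ± 0.15 in caNrf2 wall. Of 19 carriers, porins and import genes 8 and 4 fell, the 4 in caNrf2 wall being near the share of all genes. In each genotype 1 rose, Slc25a4, an ADP/ATP carrier, where 23.1% of all genes rose. Timm50, of the inner membrane import machinery, was at -0.90 ± 0.15 and -0.69 ± 0.15. Of 13 further tested subunits and isoforms that the naming rule does not reach 4 and 3 fell, the 3 in caNrf2 wall again near that share. Atpif1, the inhibitor of ATP synthase, was at -0.95 ± 0.25 and -0.75 ± 0.25 and Cox7a2l, a supercomplex factor, at -0.64 ± 0.21 and -0.76 ± 0.21.

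Of 15 tested regulators of mitochondrial biogenesis 4 fell and 1 rose in controls, and 8 fell in caNrf2 wall. Among all genes tested 16.1% fell and 23.1% rose in controls, and 18.1% fell in caNrf2 wall. Tfam, the factor that packages and transcribes mitochondrial DNA, fell from 40.9 ± 2.52 to 25.1 ± 2.03 CPM in controls (-0.71 ± 0.11, adjusted p = 0.000253) and from 40.1 ± 2.73 to 23.0 ± 1.87 CPM in caNrf2 wall (-0.80 ± 0.11, adjusted p = 8.93e-05). Tfb2m, its partner in transcription, was at -0.47 ± 0.12 and -0.63 ± 0.12. Nrf1 was at -0.27 (adjusted p = 0.0787) in controls and -0.08 (adjusted p = 0.625) in caNrf2 wall, and Gabpa, the DNA-binding subunit of GABP, at 0.06 and -0.08. Esrra, an estrogen-related receptor, was at 0.15 ± 0.17 and -0.02 ± 0.17 (adjusted p = 0.514 and 0.936). Ppargc1b, a coactivator, rose in controls (0.74 ± 0.23, adjusted p = 0.0183). Ppargc1a, its better known relative, was at 0.03 in controls (adjusted p = 0.946) and fell in caNrf2 wall (-1.01, adjusted p = 0.0149). The DSS change of Ppargc1a and Ppargc1b was not shown to differ between genotypes (interaction, adjusted p = 0.568 and 0.597). Nrf1, Gabpa, Esrra, Ppargc1a and Ppargc1b were singled out after their values were seen.

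**Figure D5:**
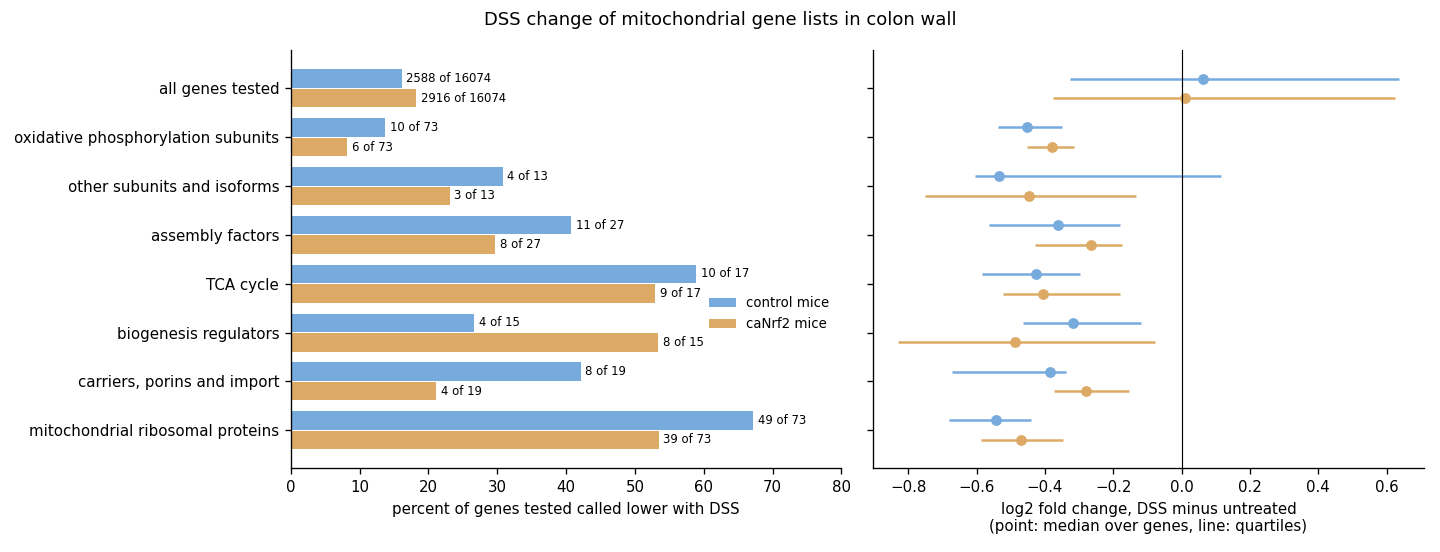
Left, percent of tested genes called lower with DSS (adjusted p below 0.05) in each list, with counts; right, median and quartiles of the log2 fold change. The 73 subunits have 10 and 6 calls and the 73 mitochondrial ribosomal proteins 49 and 39, with medians of -0.45 and -0.38 against -0.54 and -0.47.

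Markers of other cell types moved with DSS beside these changes. Over all genes tested, 23.1% rose in each genotype, and 16.1% fell in controls and 18.1% in caNrf2 wall. The counts of goblet and absorptive colonocyte markers that rose, given below, were near or below that share. The 7 fibroblast, 7 endothelial and 7 macrophage markers all rose in both genotypes, and 7 of 7 neutrophil markers rose in controls and 6 of 7 in caNrf2 wall. Endothelial markers summed to 87.6 to 118.2 CPM over the 8 untreated and 211.9 to 309.4 CPM over the 8 DSS-treated wall libraries, without overlap. Fibroblast markers summed to 935.1 to 1251 and 1928 to 4030 CPM, again without overlap. Of 8 proliferation markers 8 fell in controls and 4 in caNrf2 wall, and of 7 crypt stem cell markers 5 fell in each. Of 7 glia and neuron markers 6 and 7 rose, and of 8 smooth muscle markers 1 and 3 rose, with mean summed CPM 40.8% and 54.1% higher. Of 7 goblet cell markers 2 and 1 rose, and their mean summed CPM was 68.7% higher in controls and 50.8% higher in caNrf2 wall, where the groups did not overlap. Of 9 absorptive colonocyte markers 2 rose in controls, and 1 rose and 2 fell in caNrf2 wall. Their mean summed CPM was 7441 untreated and 7719 with DSS in controls and 9543 and 7712 in caNrf2 wall, and the groups overlapped. The 8 general epithelial markers summed to 14387 to 23793 CPM in untreated and 15389 to 16605 CPM in DSS-treated control wall, with 2 of 8 called lower, and to 16698 to 20408 and 10328 to 22846 CPM in caNrf2 wall, with 0 called. The part of these cell types in the change of the subunits was not tested.

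By edgeR no subunit passed between genotypes with all libraries in untreated wall, DSS-treated wall or epithelial cells; voom called 7 in epithelial cells. In untreated wall 0 of 73 were called by edgeR, DESeq2 or voom, and 0 had an unadjusted p below 0.05, while 0.224% of all genes were called. The median change was 0.03, and the smallest p-values belonged to Ndufb11 (0.20 ± 0.20), Uqcrc1 (0.19 ± 0.20) and Cox8a, a small complex IV subunit (0.19 ± 0.25). The lowest changes were those of Ndufb4, an accessory complex I subunit (-0.16 ± 0.25), and Cox7a1 (-0.15 ± 0.39). With DSS 0 of 73 were called by the same 3 tools and 0 had an unadjusted p below 0.05, beside 0.0933% of all genes. There 67 of 73 were fitted above 0, with a median of 0.09. Ndufa10 was at 0.23 ± 0.18, Atp5g1 at 0.19 ± 0.22, Atp5d, the delta subunit of ATP synthase, at 0.19 ± 0.21 and Ndufv1 at 0.18 ± 0.18, and at the other end Cox7a1 was at -0.19 ± 0.40 and Ndufv2, an electron-input subunit, at -0.05 ± 0.25. Without DSS-treated caNrf2 replicate 4 the median was -0.14 with 12 of 73 above 0, so this direction rests on that library.

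The DSS change was not shown to differ between genotypes for any subunit. The interaction test called 0 of 73 subunits by edgeR, DESeq2 or voom, with 0 at an unadjusted p below 0.05, and edgeR called 0.0% of all genes. The smallest p-values were those of Ndufb4, Uqcrq and Atp5e, with differences of 0.27 ± 0.35 for Ndufb4, 0.26 ± 0.36 for Uqcrq, a small complex III subunit, and 0.24 ± 0.39 for Atp5e, the epsilon subunit of ATP synthase, on the upper side. On the lower side were Ndufa6 at -0.17 ± 0.32 and Ndufb11 at -0.12 ± 0.29. The adjusted p of these 5 lay between 0.952 and 0.989.

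In epithelial cells the result depended on the pair of libraries that stand apart. With all 8 libraries edgeR and DESeq2 called 0 of 73 subunits and 0 had an unadjusted p below 0.05, edgeR called 0.0% of all genes, and voom with sample quality weights called 7, all higher in caNrf2 cells, beside 4.37% of all genes higher and 5.62% lower. The median change was 0.12, with 51 of 73 above 0. The smallest p-values were those of Atp5g2 (0.29 ± 0.18), Uqcr11, a small complex III subunit (0.47 ± 0.32), and Uqcrb, a complex III subunit near the ubiquinone site (-0.49 ± 0.35). Ndufs4, an accessory complex I subunit, was at -0.29 ± 0.34, and Ndufs5, uncertain as above, at 0.76 ± 1.77.

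Without control replicate 3 and caNrf2 replicate 1, which was tried after seeing the data, 7 of the 72 subunits tested rose in caNrf2 cells and 0 fell, or 9.72%, where 2.93% of all genes rose and 3.49% fell. The 7 were Cox8a (0.45 ± 0.09, adjusted p = 0.0284), Ndufa13, an accessory complex I subunit (0.56 ± 0.12, adjusted p = 0.0304), Atp5d (0.48 ± 0.11), Atp5g2 (0.44 ± 0.10), Uqcr11 (0.62 ± 0.15), Ndufa3 (0.57 ± 0.13) and Cox6a1 (0.41 ± 0.10). The control libraries kept had 313.6, 351.2 and 315.1 CPM of Cox8a and the caNrf2 ones 470.5, 447.4 and 425.0 CPM, without overlap. Ndufa13 was at 102.8, 111.4 and 95.4 CPM against 170.9, 131.3 and 157.1 CPM, also apart. Atp5g2 was at 191.4, 216.8 and 179.2 CPM against 253.9, 280.4 and 264.6 CPM. The median over the 72 subunits was 0.16, with 52 above 0. In the same 6 libraries colonocyte markers summed to 1237, 1384 and 2063 CPM in control and 4970, 1493 and 3550 CPM in caNrf2 cells. Their part in this difference was not tested.

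Epithelial cells and untreated wall were compared within each genotype. In controls edgeR called 0 of 73 subunits, where 38.6% of all genes were called, DESeq2 called 0 and 1 had an unadjusted p below 0.05. Voom called 49, all lower in epithelial cells, beside 33.3% of all genes lower. The median difference was 0.07 with TMM and -0.02 with RLE scaling, so it had no stable direction. The members farthest out were Atp5g1 (0.46 ± 0.22) and Ndufa10 (0.36 ± 0.22) above and Cox7a1 (-0.69 ± 0.61) and Ndufa6 (-0.45 ± 0.26) below. In caNrf2 mice 3 of 73 were higher in epithelial cells, or 4.11% beside 20.0% of all genes, and 2 lower, or 2.74% beside 23.5%.

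Voom there called 8 higher and 11 lower, beside 24.7% and 28.6% of all genes. The 5 edgeR calls in caNrf2 mice were genes of 3 complexes. Atp5g1 was at 423.0, 294.7, 240.3 and 302.7 CPM in epithelial cells and 189.0, 208.6, 179.7 and 197.5 CPM in wall (0.70 ± 0.22, adjusted p = 0.0159), without overlap. Uqcr11 was at 261.1, 196.6, 125.7 and 172.3 CPM against 103.1, 108.6, 95.4 and 122.1 CPM (0.82 ± 0.25, adjusted p = 0.0161), also apart. Ndufa2, an accessory complex I subunit, was at 0.53 ± 0.20 (adjusted p = 0.0458) and its groups overlapped; it passed in 6 of the 24 alternatives run, while the other 4 passed in 19 to 23. Ndufs5, uncertain as above, had the highest fitted difference at 1.09 and did not pass. On the lower side, Uqcrb was at 205.1, 87.8, 113.9 and 119.4 CPM in epithelial cells and 246.9, 274.6, 234.8 and 226.8 CPM in wall (-0.90 ± 0.29, adjusted p = 0.0178). Ndufa6 was at 199.9, 110.6, 103.3 and 112.1 CPM against 214.0, 251.9, 207.8 and 226.6 CPM (-0.78 ± 0.26, adjusted p = 0.0241). Uqcrb and Ndufa6 did not overlap, and in each the high epithelial library was replicate 1.

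Without the pair high in colonocyte markers more subunits passed as lower than wall than with all libraries. In controls 19 of 73 were lower and 0 higher, where 26.6% of all genes were lower and 21% higher, and in caNrf2 mice 20 were lower and 2 higher, or 27.4% and 2.74%, beside 30.8% and 22% of all genes. The share that was lower was thus near the background in each. The fitted difference was below 0 for 69 and 53 of 73, with medians of -0.29 and -0.12. The medians of all genes were -0.06 and -0.11, the second close to that of the subunits. Cox7a1 was at -1.87 ± 0.33 (adjusted p = 0.000236) and -1.14 ± 0.31 (adjusted p = 0.00641), Ndufa6 at -0.84 ± 0.16 and -1.10 ± 0.17, and Uqcrb at -0.74 ± 0.20 and -1.25 ± 0.20, in controls and caNrf2 mice. The 2 that were higher in caNrf2 mice were Atp5g1 (0.48 ± 0.15) and Uqcr11 (0.57 ± 0.17).

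Whether the transgene effect differed between epithelial cells and untreated wall was tested in the same fit. EdgeR called 0 of 73 subunits and 0.0% of all genes, DESeq2 called 0 and 0 had an unadjusted p below 0.05. Voom called 8, all with a positive difference, beside 2.16% of all genes. Without the pair high in colonocyte markers 0 of 73 were called, beside 0.455% of all genes, with a median difference of 0.15 (-0.03 over all genes). The smallest p-values were those of Uqcrb (-0.56 ± 0.40), Uqcr11 (0.49 ± 0.36) and Uqcr10 (0.33 ± 0.30), all complex III, with an adjusted p of 0.783 to 0.839. Cox7a1 was at 0.52 ± 0.85, Ndufs5 at 0.83 ± 1.84 and Atp5c1 at -0.33 ± 0.30.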

How the data were processed

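Messenger RNA of 24 colon libraries was analysed from the deposited tables, which give an expected count and a TPM for each of 30383 transcripts. The authors' expected counts and TPM came from RSEM 1.2.11 on mm10, with FastQC, per the submitters' processing notes. The sources used here do not state the strand setting or the annotation.

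Expected counts were summed per gene symbol (23329 symbols) and rounded; 39.2% of the deposited counts were not whole. TPM was summed likewise and used to compare genes. edgeR 4.0.16 in R 4.3.3 (TMM, filterByExpr, quasi-likelihood F test, Benjamini-Hochberg adjustment, threshold 0.05) was fitted to the 8 epithelial libraries (12941 genes), the 16 wall libraries (16074 genes) and the 16 untreated libraries (15073 genes). The SE is the size of the log2 fold change over the root of F. CPM come from the fit that a comparison uses. Alternatives used DESeq2 1.42.0, voom with quality weights in limma 3.58.1, other scalings and filters, a replicate block, and leaving out libraries. The code was checked on simulated counts. Replicate numbers did not pair the libraries.

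Totals per library are given above. The series text speaks of triplicates, and 4 libraries per group were used. No 2 libraries of a group, of 36 pairs, agreed within sampling noise (lowest chi-square per gene 10.55).

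The members and lists were chosen with earlier results of these data known. Named genes were a set of core or isoform genes whatever their values, the 3 subunits of smallest p per complex past the threshold (or overall where none passed), the 2 farthest from the median on each side, the 2 highest and 2 lowest by TPM in each complex, and 3 genes of smallest p per list. Ndufa7, Ndufs6 and the calls made without single libraries were named after their values were seen. The values of 1 subunit are counted but not reported singly here. Upstream sequences are RefSeq's (GRCm38.p6), matched by symbol.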

Additional observations from a re-analysis of the deposited data

Results flagged for a closer look

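Within each group of 4 libraries, the highest and lowest values were set against the range of the group for the summed levels and for 39 subunits, those called in a comparison or named by the rule for named genes. The gap of 1 library exceeded Dixon's critical value for 4 libraries in 58 of 270 sets of 4 values, where chance gives about 1 in 20; the sets are not independent, because the subunits move together. Values are in CPM.

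Control epithelial replicate 3, the library high in colonocyte markers, accounted for most of these. Its summed level was 28836 for all 73 subunits (others 14265 to 15591), 6435 for complex I (others 3298 to 3499), 1880 for complex II (others 919.9 to 1043), 3394 for complex III (others 1645 to 1817), 6446 for complex IV (others 2789 to 3093) and 10679 for complex V (others 5612 to 6140). In complex I it lay at 256.6 for Ndufa10, 111.4 for Ndufa2, 247.8 for Ndufa6, 139.1 for Ndufa7, 117.8 for Ndufa11, 252.5 for Ndufa13, 188.9 for Ndufb11, 96.2 for Ndufc2, 252.0 for Ndufs1, 135.1 for Ndufs4, 13.8 for Ndufs5, 114.6 for Ndufs6, 309.3 for Ndufv1 and 242.4 for Ndufv2. In complex II it lay at 731.8 for Sdha and 379.8 for Sdhb. In complex III it lay at 308.1 for Uqcr10, 230.9 for Uqcr11, 312.3 for Uqcrb, 580.7 for Uqcrc1, 439.8 for Uqcrfs1 and 223.3 for Uqcrq. In complex IV it lay at 1216 for Cox4i1, 594.7 for Cox5a, 789.2 for Cox6a1, 59.7 for Cox7a1, 426.9 for Cox7a2 and 665.2 for Cox8a. In complex V it lay at 2628 for Atp5a1, 3131 for Atp5b, 551.2 for Atp5c1, 629.9 for Atp5d, 236.8 for Atp5e and 603.9 for Atp5g3. The other 3 control epithelial libraries lay lower and close together for each of these, such as 104.0 to 108.1 for Uqcr11 and 148.2 to 161.6 for Sdhb.

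The caNrf2 epithelial replicate 1, the other library high in colonocyte markers, was above the rest of its group at 1854 for complex II (others 934.3 to 1057), 3376 for complex III (others 1722 to 1970), 3308 for Atp5b (others 1849 to 2048), 590.4 for Atp5g3 (others 285.0 to 326.9), 267.1 for Ndufa10 (others 131.4 to 154.6), 205.6 for Ndufa6 (others 103.6 to 110.7) and 251.6 for Uqcrq (others 131.9 to 142.0).

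Replicate 4 of untreated control wall was the lowest at 133.5 for Atp5g1 (others 210.9 to 214.0), 48.7 for Ndufa2 (others 72.7 to 76.9) and 75.2 for Uqcr11 (others 117.3 to 125.8). Replicate 2 of untreated caNrf2 wall was the highest at 272.2 for Atp5g2 (others 224.9 to 232.2) and 219.1 for Sdhb (others 195.6 to 196.9). Replicate 3 of DSS-treated control wall was the highest at 548.9 for Cox4i1 (others 408.8 to 427.8), 124.4 for Ndufa4 (others 85.7 to 90), 136.1 for Ndufa13 (others 90.8 to 98.3) and 75.02 for Ndufs4 (others 61.3 to 62.6). Replicate 4 of DSS-treated caNrf2 wall was the highest at 101.5 for Ndufa7 (others 40.5 to 49.3) and 7.91 for Ndufs5 (others 1.91 to 2.82). Untreated control replicate 4, untreated caNrf2 replicate 2 and DSS-treated caNrf2 replicate 4 changed the number of calls with DSS when left out.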

How the results depend on the processing

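The fitted median of the subunits with DSS was below 0 under each alternative run, between -0.65 and -0.39 in controls and between -0.65 and -0.25 in caNrf2 mice, with 72 to 73 and 71 to 73 of 73 below 0. The number called varied; the cause was not tested. With DSS in controls (10 called) it was 21 with RLE scaling (18.9% of all genes lower), 25 with total counts only (16%), 26 with DESeq2 (20.5%) and 69 with voom (26%). It was 41 with only the 2 groups compared (18.3%) and 39 without the 4 libraries numbered 4 (18.6%). With DSS in caNrf2 mice (6 called) it was 20 with total counts only (18.1% of all genes lower), 10 with DESeq2 (20.5%), 69 with voom (27.6%) and 3 with only the 2 groups (17.1%). It was 55 without the 4 numbered 4 (21.3%) and 15 without DSS replicates 1 and 4 (16.9%). Leaving out 1 library at a time gave 1 to 47 and 0 to 63. In epithelial cells genotype gave 7 with voom, all higher (4.37% of all genes higher), against 0. It gave 7 higher without control replicate 3 and caNrf2 replicate 1 (2.93%), also against 0. Tissue in controls (0 called) gave 49 lower with voom (33.3% of all genes lower) and 19 lower without that pair (26.6%). Leaving out 1 library gave 0 to 7, the 7 being lower without epithelial control replicate 3 (23.4% of all genes lower). In caNrf2 mice (5 called) tissue gave 9 with total counts only, 3 higher and 6 lower (17.9% and 24.3% of all genes). It gave 19 with voom, 8 higher and 11 lower (24.7% and 28.6%). Without the pair it gave 22, 2 higher and 20 lower (22% and 30.8%). Leaving out 1 library gave 2 to 13, the 13 being lower without epithelial replicate 1 (27.4% of all genes lower). The tissue interaction gave 8 with voom, all with a positive difference (2.16% of all genes). The median tissue difference in controls was -0.35 with voom and -0.29 without the pair or without control replicate 3.

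On the authors' TPM the log2 ratio of the summed level with DSS in controls was -0.28 for complex I, -0.23 for complex IV and -0.31 for complex V. The same replicate numbers did not deviate together (correlations of -0.40 to 0.36 in wall, -0.63 to 0.32 in epithelial cells and -0.21 to 0.34 across tissues), and the main values use no block. A fit with the replicate block called 5 lower with DSS in controls (14.1% of all genes lower). For tissue in caNrf2 mice it called 1, lower (22.1% of all genes lower). Of 1993 values of 84 named gene results, 1730 kept direction and side of the threshold, 121 lost and 114 gained a call, and 28 changed sign. Ndufa10 with DSS passed in 24 of 24 alternatives in controls and in 17 of 25 in caNrf2 mice. Atp5g2 passed in 17 and 18, and Cox7a1 in 19 and 23. The other calls named in controls passed in 13 (Ndufs6) to 23 (Uqcr10) of 24. Those named in caNrf2 mice alone passed in 17 (Uqcrc1) to 21 (Ndufb11) of 25.

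With voom, Atp5g1 for genotype in DSS-treated wall was -0.0185 and Ndufs5 was -0.47 with DSS in controls and -0.68 for tissue in caNrf2 mice, where the replicate block gave -0.77. Without the 4 libraries numbered 4, genotype in DSS-treated wall was -0.0817 for Atp5d, -0.0742 for Atp5g1 and -0.0028 for Ndufv1, and Ndufs5 with DSS in caNrf2 mice was -0.0815. Without DSS-treated caNrf2 1 and 4, Ndufs5 was -0.19 and the interaction of Atp5e -0.0398. Leaving out 1 library at a time turned the sign of a few log2 differences. For genotype in epithelial cells Ndufs5 ran from -0.15 to 3.66. For genotype in untreated wall Cox7a1 ran from -0.34 to 0.0617. For DSS in controls Ndufs5 ran from -0.10 to 0.53. For the DSS-by-genotype interaction Ndufb11 ran from -0.31 to 0.0203, Ndufa6 -0.33 to 0.0332 and Atp5e -0.10 to 0.42. For genotype in DSS-treated wall Ndufv2 ran from -0.32 to 0.14 and Cox7a1 -0.78 to 0.10. For DSS in caNrf2 mice Ndufa11 ran from -0.41 to 0.0848 and Ndufs5 -0.35 to 0.52. For the tissue-by-genotype interaction Cox7a1 ran from -0.40 to 1.66 and Ndufs5 -0.11 to 3.67.

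A subunit that missed the threshold is not shown to be equal between groups.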
